A study of Homo sapiens with 6 samples.

Results

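The hypoxia-inducible factor axis was followed here through 10 genes, chosen by symbol, of the 26255 genes listed for each sample. They are HIF1A, EPAS1 and ARNT, which encode the transcription factor subunits, VHL, EGLN1, EGLN2 and EGLN3, which encode the machinery that removes those subunits, and VEGFA, BNIP3 and ADM, which are targets of the factor. All 10 were found in every sample. The RNA came from 22RV1, an established human CRPC (castration-resistant prostate cancer) cell line, grown in serum-containing medium with its androgen left in. In the control group, 3 samples received the vehicle DMSO for 24 h. In the other group, 3 samples received 10 nM bruceantin (BCT), a quassinoid natural product, for 24 h. All samples were one cell line, the labels name no low-oxygen condition, and no label says whether the replicates were separate cultures, so p-values measure the spread between these samples only.

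In cells with enough oxygen, the EGLN enzymes hydroxylate prolines of HIF1A and EPAS1 proteins, and VHL, as part of a ubiquitin ligase, marks the hydroxylated proteins for the proteasome. When oxygen is short, the alpha subunits escape, pair with ARNT and bind short DNA elements with the core ACGTG or GCGTG near genes for glucose use, vessel growth and mitochondrial turnover. Much of this control acts on protein, so transcript levels describe the parts of the system and some of its outputs, not the amount of active factor. HIF1A protein is also a known client of HSP90, the chaperone that the study examined.

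The expression values were FPKM, fragment counts that the authors scaled by transcript length and library size, which are per length and so can be set side by side between genes. The scale of all fold changes was log2(FPKM + 0.1), on which low genes show less than their full change. A gene was called higher or lower when its log2 fold change (BCT against DMSO) passed 0.85 in size with a Benjamini-Hochberg adjusted p from limma under 0.05, over the 12729 genes that averaged 1 FPKM or more. All 10 hypoxia axis genes passed that filter. EPAS1, at under 1 FPKM in every DMSO sample, passed it only through its BCT samples, and so had to differ.

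As for the libraries as a whole, FPKM holds no read counts, but the spacing of low values gave relative depths of 0.877 to 1 with DMSO and 1.05 to 1.13 with BCT, taking DMSO replicate 1 as 1. BCT replicate 1 lay nearer to the DMSO samples (correlations across genes of 0.892 to 0.896) than BCT replicates 2 and 3 (0.851 to 0.857). Of 9 markers of luminal prostate epithelium, 8 were above 1 FPKM in all samples, and 3 basal markers stayed at or below 0.237 FPKM. The luminal markers moved in opposite directions with BCT. KLK3, KLK2 and TMPRSS2 were called lower (log2 fold changes of -2.95, -1.61 and -1.59), KRT8 and KRT18 higher (1.17 and 1.72), and the rest were not called. The 3 endothelial markers PECAM1, CDH5 and VWF summed to 0.014 to 0.043 FPKM with DMSO and 0.039 to 0.051 with BCT. Endothelium also expresses EPAS1, VEGFA and ADM, and the source of their transcripts was not tested. The 5 stroma markers summed to 5.09 to 6.10 FPKM with DMSO and 18.2 to 21.0 with BCT, nearly all of it ACTA2 and COL1A1, and their part in the results was not tested. Since each value averages a culture, a change in the share of cells that express a gene and a change of RNA per cell cannot be told apart.

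Of the 10 genes, 4 were called higher with BCT (EPAS1, ADM, VEGFA and EGLN1), 1 was called lower (BNIP3) and 5 were not called. EPAS1 is in all counts of this paragraph, although the filter that it passed only through its BCT samples fixed its direction in part. Over all genes tested, 13.9% were called higher, 17.8% lower and 31.6% in either direction. The median log2 fold change was 0.38 over the 10 genes and -0.038 over all genes tested. The groups were fully apart for 9 of the 10 genes, 7 with BCT higher and 2 with BCT lower, and overlapped for HIF1A. Of all genes tested, 85.3% were fully apart, 41% with BCT higher and 44.3% with BCT lower. The changes pointed in opposite directions within the targets, with VEGFA and ADM higher and BNIP3 lower.

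**Figure D1:**
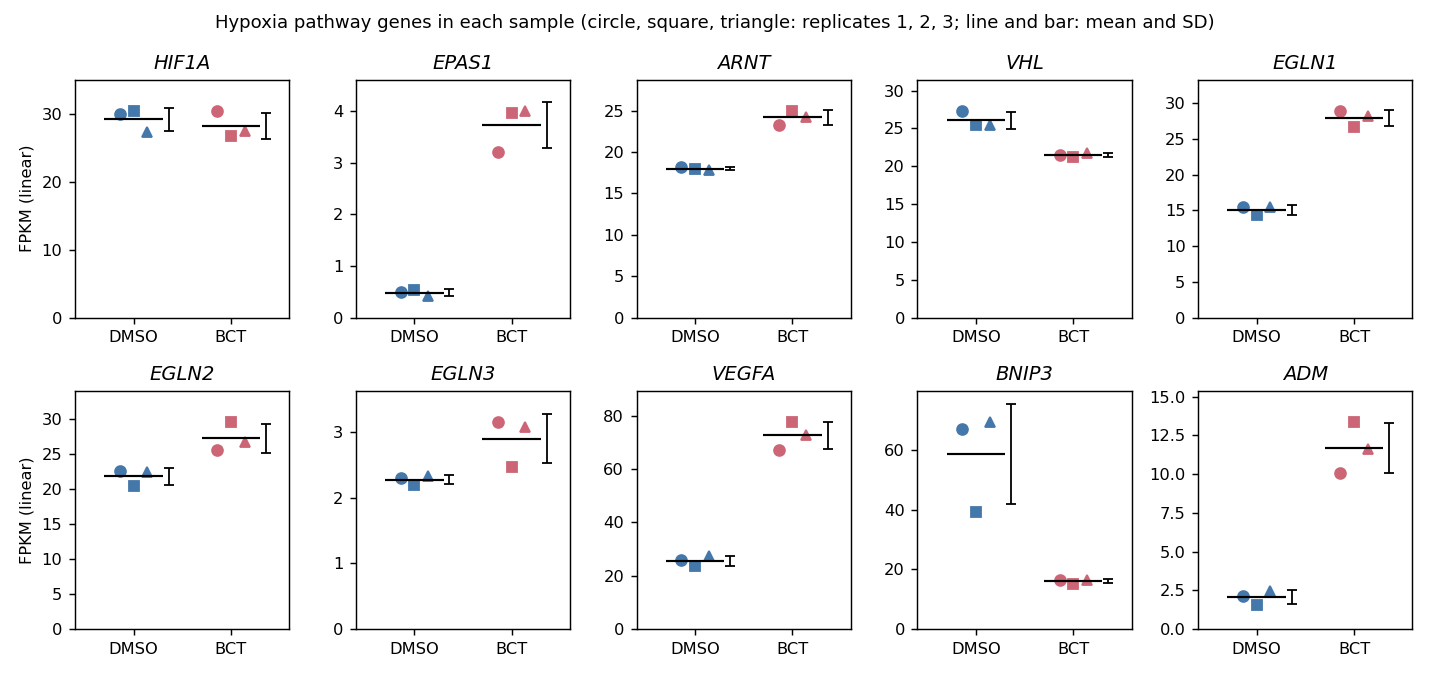
FPKM (linear axes from 0) of the 10 hypoxia axis genes in each of the 3 DMSO and 3 BCT samples, with replicate numbers by symbol, the group mean as a line and the SD as a bar. HIF1A is level between the groups on the deposited scale, EPAS1, VEGFA and ADM stand clearly higher with BCT, and BNIP3 is lower, with DMSO replicate 2 (39.2 FPKM) apart from the other DMSO samples.

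The DNA element that HIF binds was looked up in the windows upstream of these genes, since several of the genes are themselves HIF targets. RefSeq promoter windows (GRCh38.p14, from 250 bases before to 50 bases after a gene's start) were found for 8 of the 10 genes, by symbol; VEGFA and VHL had no entry. The letters ACGTG and GCGTG were searched on both strands, and the palindrome CACGTG counts once on each strand. Of all 35116 windows in the table, 48.4% held at least 1 match to either motif and 21.4% held ACGTG. The 8 hypoxia axis genes found had 10 windows, and 6 of these windows held a match, each for a different gene. HIF1A and EGLN2 each had another window without a match, and EGLN3 and ARNT had no match. The windows of BNIP3, which was called lower, and of EGLN1, ADM and EPAS1, which were called higher, are shown 5′ to 3′ on the gene's strand with the matches in capitals.
BNIP3 (chr10:131981874-131982173, minus strand): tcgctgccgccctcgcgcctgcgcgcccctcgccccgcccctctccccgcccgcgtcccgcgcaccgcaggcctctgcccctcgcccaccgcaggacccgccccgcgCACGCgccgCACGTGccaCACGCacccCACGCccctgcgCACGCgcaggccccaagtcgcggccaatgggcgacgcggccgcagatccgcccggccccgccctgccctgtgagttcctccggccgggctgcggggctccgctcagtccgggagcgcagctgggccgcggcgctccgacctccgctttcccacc
EGLN1 (chr1:231422238-231422537, minus strand): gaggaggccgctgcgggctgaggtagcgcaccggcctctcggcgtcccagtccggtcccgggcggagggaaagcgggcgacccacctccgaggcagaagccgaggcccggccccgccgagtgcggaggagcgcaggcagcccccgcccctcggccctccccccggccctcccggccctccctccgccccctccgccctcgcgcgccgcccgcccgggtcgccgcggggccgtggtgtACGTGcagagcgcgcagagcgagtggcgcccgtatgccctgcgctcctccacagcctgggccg
ADM (chr11:10304823-10305122, plus strand): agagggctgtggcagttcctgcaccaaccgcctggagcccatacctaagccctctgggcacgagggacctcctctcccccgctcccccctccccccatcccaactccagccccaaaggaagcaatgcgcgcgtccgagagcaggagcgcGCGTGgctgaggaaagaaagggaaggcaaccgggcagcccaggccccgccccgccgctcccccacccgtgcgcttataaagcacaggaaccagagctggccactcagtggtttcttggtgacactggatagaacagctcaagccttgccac
EPAS1 (chr2:46297157-46297456, plus strand): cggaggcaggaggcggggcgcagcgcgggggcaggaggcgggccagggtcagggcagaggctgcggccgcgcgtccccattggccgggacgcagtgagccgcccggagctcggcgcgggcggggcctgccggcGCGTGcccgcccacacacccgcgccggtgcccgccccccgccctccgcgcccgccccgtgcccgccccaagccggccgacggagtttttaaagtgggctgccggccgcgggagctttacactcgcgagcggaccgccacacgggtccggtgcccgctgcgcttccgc

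The BNIP3 window held 6 matches, of which 2 come from a single CACGTG palindrome at positions -134 and -133, counted from the start of the gene. Windows with 6 or more matches made up 0.923% of all windows. EGLN1 held 1 ACGTG at -13, ADM 1 GCGTG at -101 and EPAS1 1 GCGTG at -117. Matches thus stand in genes called in both directions, and they describe letters only, not binding.

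The transcription factor subunits behaved unequally, with EPAS1 higher and HIF1A level on the deposited scale (a log2 fold change of 0.71 with equal FPKM sums, where the median of all genes was 0.72). HIF1A encodes the broadly expressed alpha subunit. Its deposited locus, on chromosome 14 from 62147759 to 62215807 in hg19, may be wider than the gene and hold antisense transcripts too. HIF1A was at 30.0, 30.5 and 27.4 FPKM with DMSO, against 30.4, 26.8 and 27.5 with BCT. The groups overlapped. The log2 fold change was -0.05 (95% confidence interval -0.21 to 0.10, adjusted p = 0.49 from limma), an interval that holds no change of the size needed for a call. HIF1A-AS2, an antisense transcript listed at the same locus, was at 6.65 ± 0.635 FPKM with DMSO and 9.62 ± 0.856 with BCT (SD, n = 3 each) and was not called. The library kit does not mark strand, so reads of the gene and of its antisense transcript cannot be told apart where they overlap.

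EPAS1 encodes the alpha subunit known as HIF-2 alpha, best known from endothelium, kidney and renal carcinoma. The gene lies on chromosome 2 from 46524541 to 46613842. It was at 0.495, 0.537 and 0.416 FPKM with DMSO, against 3.21, 3.97 and 4.01 with BCT. Every BCT sample was well above every DMSO sample, from a very low start. The mean rose 7.73-fold, a log2 fold change of 2.72 (limma, adjusted p = 1.4e-06, standard error 0.15). EPAS1 passed the filter only through its BCT samples, so that p-value is not independent of the filter. With no filter on low values the adjusted p was 9.9e-06 (limma). Despite the rise, EPAS1 stayed far below HIF1A in all samples.

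The HIF1A to EPAS1 ratio of FPKM within a sample, which no scaling factor per sample can change, was 60.6, 56.8 and 65.8 with DMSO and 9.47, 6.76 and 6.86 with BCT. On the log2 scale the ratio differed by -3.00 (standard error 0.17). An exact two-sided permutation test of 3 samples against 3 gave p = 0.1, the smallest p that design allows, and 0.1 after adjustment over the 3 ratios computed. The ratio did not overlap between the groups.

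ARNT encodes the beta subunit that both alpha subunits need for DNA binding. ARNT lies on chromosome 1 from 150782181 to 150849244. It was at 18.2, 18.0 and 17.8 FPKM with DMSO, against 23.3, 25.0 and 24.3 with BCT. The groups were narrow and apart, and the log2 fold change of 0.42 (adjusted p = 6.8e-05 from limma) did not reach the fold change threshold. Its paralog ARNT2 fell from 2.05 ± 0.180 to 1.06 ± 0.301 FPKM (SD, n = 3 each; log2 fold change -0.92). HIF3A, the remaining alpha subunit gene, was below the filter, with group means of 0.051 FPKM with DMSO and 0.096 with BCT.

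Of the genes that lead to removal of the alpha subunits, EGLN1 was called higher and the others were not called. EGLN1 encodes the main oxygen-sensing prolyl hydroxylase and is itself a HIF target. It lies on chromosome 1 from 231499497 to 231560790. It was at 15.5, 14.3 and 15.5 FPKM with DMSO, against 29.0, 26.8 and 28.2 with BCT. The mean rose 1.85-fold, a log2 fold change of 0.89 (95% confidence interval 0.75 to 1.02, adjusted p = 2.5e-06 from limma). Its call is near the threshold of 0.85. Without DMSO replicate 2 the log2 fold change was 0.8478, and with a pseudocount of 1 it was 0.8485, both just short of a call, while the adjusted p stayed at 2.9e-05 and 3.7e-06.

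EGLN2 encodes the most nuclear of the hydroxylases. It was at 22.5, 20.3 and 22.4 FPKM with DMSO, against 25.5, 29.5 and 26.7 with BCT, with no overlap and a log2 fold change of 0.32 (adjusted p = 0.0027 from limma), which is not a call. The deposited locus, on chromosome 19 from 41281082 to 41314346, also holds RAB4B and the read-through transcript RAB4B-EGLN2. RAB4B was at 19.5 ± 1.52 FPKM with DMSO and 11.4 ± 1.18 with BCT and the read-through at 0.555 and 0.343 on average, so how reads were split between these overlapping transcripts could touch the value of EGLN2.

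EGLN3, in other cells the most strongly hypoxia-induced of the hydroxylases, was the lowest of them. It lies on chromosome 14 from 34393421 to 34420284. It was at 2.30, 2.19 and 2.33 FPKM with DMSO, against 3.15, 2.47 and 3.08 with BCT. BCT replicate 2 lay close to the DMSO samples. The log2 fold change was 0.33 (limma, adjusted p = 0.023, standard error 0.11), not a call, and the adjusted p was between 0.051 and 0.082 in 5 of the 6 fits that left out 1 sample, the exception being 0.0046 without BCT replicate 2.

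Ratios within a sample set the hydroxylase genes against each other. The EGLN1 to EGLN2 ratio of FPKM was 0.689, 0.703 and 0.692 with DMSO and 1.14, 0.907 and 1.06 with BCT. EGLN1 was thus the less abundant transcript in all DMSO samples and the more abundant one in 2 of the 3 BCT samples. The EGLN3 to EGLN1 ratio was 0.1486, 0.1533 and 0.15003 with DMSO and 0.109, 0.0924 and 0.109 with BCT. Neither ratio overlapped between groups, and both had an exact permutation p = 0.1 (two-sided), again the smallest possible.

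VHL encodes the substrate receptor of the ubiquitin ligase and lies on chromosome 3 from 10183319 to 10195354. It was at 27.3, 25.5 and 25.4 FPKM with DMSO, against 21.4, 21.2 and 21.8 with BCT. All BCT samples were lower, and the log2 fold change of -0.28 (95% confidence interval -0.40 to -0.16, adjusted p = 0.00096 from limma) was well short of a call. Its direction depends on the scaling, as described with the plot of scalings.

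The targets parted. VEGFA encodes the growth factor that drives new vessels and lies on chromosome 6 from 43737946 to 43754223. It was at 25.7, 23.7 and 27.5 FPKM with DMSO, against 67.2, 77.6 and 72.9 with BCT. The lowest BCT sample was more than double the highest DMSO sample. The mean rose 2.83-fold, or by 1.498 on the log2 scale (limma, adjusted p = 9.4e-07, standard error 0.073).

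ADM encodes adrenomedullin, a vasodilator peptide, and lies on chromosome 11 from 10326527 to 10328949. It was at 2.12, 1.56 and 2.44 FPKM with DMSO, against 10.1, 13.4 and 11.6 with BCT. The groups were far apart, and the mean rose 5.73-fold, a log2 fold change of 2.47 (limma, adjusted p = 2.7e-06, standard error 0.16).

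BNIP3 encodes a mitochondrial outer membrane protein that recruits the autophagy machinery to mitochondria. It lies on chromosome 10 from 133781187 to 133795517. It was at 67.0, 39.2 and 69.3 FPKM with DMSO, against 16.4, 15.2 and 16.4 with BCT. The BCT samples were nearly equal, and DMSO replicate 2 was well below the other DMSO samples, yet more than double any BCT sample. The mean fell 3.65-fold, a log2 fold change of -1.82 (limma, adjusted p = 3.6e-05, standard error 0.19). Without DMSO replicate 2 the log2 fold change was -2.08.

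In order of mean FPKM, BNIP3 led the 10 genes with DMSO (58.5), followed by HIF1A (29.3), VHL (26.1), VEGFA (25.6), EGLN2 (21.7), ARNT (18.0) and EGLN1 (15.1), with EGLN3 (2.27), ADM (2.04) and EPAS1 (0.483) far below. The samples of VEGFA overlapped with those of VHL and of HIF1A, and the samples of EGLN3 with those of ADM. With BCT, VEGFA led at 72.6, HIF1A (28.3), EGLN1 (28.0) and EGLN2 (27.2) overlapped, and ARNT (24.2), VHL (21.5), BNIP3 (16.0), ADM (11.7), EPAS1 (3.73) and EGLN3 (2.90) followed.

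Beyond the 10 genes, 4 lists describe the rest of the pathway. They were written from general knowledge, but with earlier results of these data known, so their counts are descriptive. Each is given by its counts and median, beside those of all genes tested, and no test was run on a list as a whole. Of 25 HIF targets that serve glucose use, 24 passed the filter, 15 were called lower (62.5%, against 17.8% of all genes) and 0 higher, while 23 passed an adjusted p under 0.05 alone (limma), 82.1% of all genes doing so. Their median log2 fold change was -1.12. With equal FPKM sums, 5 were called lower and 2 higher with a median of -0.35, where 5.25% of all genes were called lower and 44.1% higher. SLC16A3, the lactate exporter, fell from 13.1 ± 3.15 to 3.27 ± 0.138 FPKM, DMSO replicate 2 being lowest of its group at 9.64 and still above every BCT sample, a log2 fold change of -1.94. PGK1, a glycolytic kinase often used as a HIF reporter gene, fell from 262.8 ± 22.3 to 82.9 ± 6.77 FPKM (log2 fold change -1.66, n = 3 each). PDK3, which restrains entry of pyruvate into mitochondria, was at -1.75 and HK2, the hypoxia-inducible hexokinase, at -1.65, both called lower. The 9 that were not called included GAPDH at -0.52 and GBE1 at 0.58.

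Of 48 HIF targets outside glycolysis, 39 passed the filter. Of these, 17 were called lower (43.6%, against 17.8% of all genes) and 5 higher (12.8%, against 13.9%). The median log2 fold change was -0.52. It turned to 0.25 when samples were set to equal FPKM sums, against an all-gene median of 0.72 there. MIR210HG, the host transcript of the hypoxia-induced miR-210, fell from 2.84, 1.09 and 3.39 FPKM with DMSO to 0.356, 0.178 and 0.156 with BCT. Its log2 fold change was -2.85 (standard error 0.42), and DMSO replicate 2 stood well below the other DMSO samples. MIR210HG, under 1 FPKM in every BCT sample, passed the filter only through its DMSO samples and so had to differ. IGFBP3, a binding protein for insulin-like growth factors, fell from 133.7 ± 14.2 to 33.6 ± 2.77 FPKM (log2 fold change -1.99). CCNG2, an unusual cyclin that slows the cell cycle, was at -1.91 and HILPDA, a lipid droplet protein, at -1.85. BNIP3L, the paralog of BNIP3 in mitochondrial clearance, was called lower as well, at -1.69.

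The 5 that were called higher were KLF10, EDN1, HMOX1, BHLHE41 and TGFA. EDN1, which encodes the vasoconstrictor endothelin-1, rose from 3.55, 3.28 and 4.02 FPKM with DMSO to 17.4, 21.2 and 22.9 with BCT, a log2 fold change of 2.47. KLF10, a transcription factor that TGF-beta also induces, rose from 11.9, 11.6 and 13.8 FPKM with DMSO to 56.1, 86.0 and 82.2 with BCT (log2 fold change 2.56), and HMOX1, the heme oxygenase that oxidative stress also induces, from 2.21 ± 0.290 to 9.04 ± 2.94 (1.95). BHLHE41, a transcriptional repressor, was at 1.36 and TGFA, an EGF receptor ligand, at 1.25. Like EPAS1, TGFA was under 1 FPKM in every DMSO sample and passed the filter only through its BCT samples. Among the classical HIF targets under the filter, CA9 and EPO never exceeded 0.073 FPKM.

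**Figure D2:**
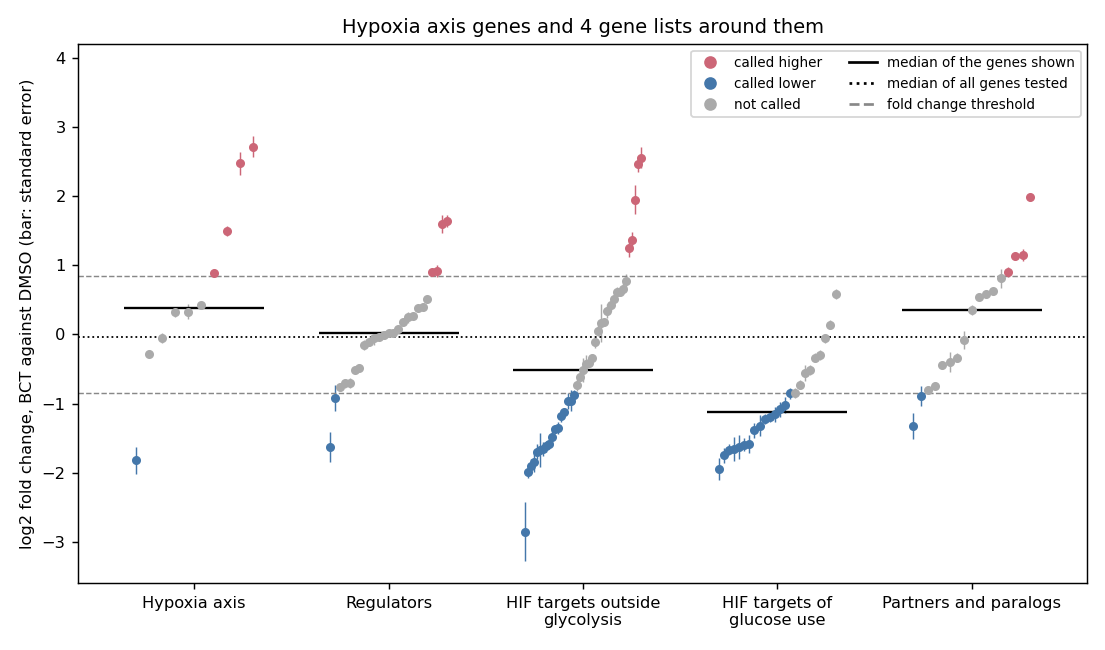
Log2 fold change (BCT against DMSO, bars are standard errors) of the 10 hypoxia axis genes and of the tested genes of the 4 lists, one point per gene ordered within each group, coloured by call. The solid lines mark medians, with genes of glucose use at -1.12 and HIF targets outside glycolysis at -0.52, and the dotted line marks the median of all genes at -0.038.

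Of 26 regulators, 25 passed the filter, with a median log2 fold change of 0.014. Of these, 4 were called higher (16%, against 13.9% of all genes) and 2 lower (8%, against 17.8%). CREBBP and EP300, the acetyltransferases that HIF recruits, rose together. CREBBP was at 6.72, 7.83 and 7.53 FPKM with DMSO and 20.9, 23.8 and 24.8 with BCT, a log2 fold change of 1.64. EP300 rose from 11.3 ± 1.62 to 34.5 ± 4.30 FPKM (log2 fold change 1.597). The ubiquitin ligase genes FBXW7 (0.92) and MDM2 (0.90) were also called higher, and the constitutive chaperone HSPA8 (-1.63) and ARNT2 were called lower.

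Most of the other direct regulators named were not called. HIF1AN, the asparagine hydroxylase that blocks recruitment of CREBBP and EP300, was at 15.2 ± 0.287 and 18.3 ± 0.229 FPKM (SD, n = 3 each; log2 fold change 0.27, not called). CUL2, the scaffold of the VHL ligase, was at -0.11, and CITED2, a competitor of HIF for CREBBP and EP300 and itself a HIF target, at 0.18. HSP90AA1 and HSP90AB1, the HSP90 isoforms, were at -0.71 and -0.76, short of the fold change threshold although both had an adjusted p far under 0.05 (2.0e-05 and 4.9e-06 from limma).

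Of 27 genes listed as partners and paralogs of VEGFA, ADM and BNIP3, 17 passed the filter. Of these, 4 were called higher (23.5%, against 13.9% of all genes) and 2 lower (11.8%, against 17.8%). Their median log2 fold change of 0.35 turned to -0.083 when no filter was applied. NRP1, a VEGFA co-receptor, rose from 7.06 ± 0.906 to 15.7 ± 0.475 FPKM (SD, n = 3 each; log2 fold change 1.146), while the VEGFA receptor KDR stayed at or below 0.042 FPKM and FLT1 at or below 0.008 FPKM in all samples. VEGFB, a paralog of VEGFA, fell from 3.39 ± 0.397 to 1.79 ± 0.340 FPKM (log2 fold change -0.89). CALCRL, the receptor through which ADM acts, was between 0.032 and 0.160 FPKM. ADM2, a related peptide, rose from 22.8 ± 0.884 to 50.2 ± 2.07 FPKM (1.14), and ADM5 fell from 1.66 ± 0.293 to 0.598 ± 0.0738 (-1.32). ADM5, under 1 FPKM in every BCT sample, passed the filter only through its DMSO samples, so its call was fixed in part by that filter. BNIP1, a SNARE protein of the endoplasmic reticulum, rose from 14.4 ± 0.104 to 57.6 ± 3.44 FPKM (1.99), and BNIP2 was at 0.90. Both are among the 4 called higher, and both share a name with BNIP3 without being its paralogs.

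Within the DMSO group, DMSO replicate 2 stood apart for HIF targets. It held the lowest value of the group in 6 of the 10 genes, in 31 of the 39 targets outside glycolysis (79.5%) and in 17 of the 24 targets of glucose use (70.8%), against 36.6% of all genes tested. Compared with the mean of DMSO replicates 1 and 3, it was 1.74-fold lower for BNIP3 (39.2 against 68.2 FPKM), 2.86-fold lower for MIR210HG, 1.96-fold lower for NDUFA4L2, which tunes mitochondrial respiration, and 1.46-fold lower for ADM. BNIP3 ranked 51 of 12729 genes from the lowest on this difference, and HIF1A itself was not lower in that sample. DMSO replicate 3 held the lowest value in 0 of the 39 targets outside glycolysis, in 4 of the 24 targets of glucose use and in 4 of the 10 genes. Of all genes tested, 34.7% were lowest in DMSO replicate 3. Without DMSO replicate 2, the same numbers of these targets were called lower (17 and 15), and the medians were -0.61 and -1.17. These within-group comparisons were chosen after the values were seen, and the cause was not tested.

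Within the BCT group, BCT replicate 1 held the highest value in 21 of the 24 genes of glucose use (87.5%), against 45.0% of all genes tested. It also had the lowest EPAS1, VEGFA and ADM values of its group, but the highest EGLN1 value (29.0 against 26.8 and 28.2 FPKM). Over the 10 genes it was lowest in 5 and highest in 3 (37.8% and 45.0% of all genes tested). BCT replicate 3 held the lowest value in 17 of the 24 genes of glucose use (70.8%), against 31.7% of all genes tested. Without BCT replicate 1, 16 of the 24 genes were called lower with a median log2 fold change of -1.23. EPAS1, VEGFA, ADM and EGLN1 then stood at 2.82, 1.55, 2.57 and 0.86. These comparisons were also chosen after the values were seen, and the cause was not tested.

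The scaling of the samples decides the direction for HIF1A and VHL. When the samples were set to equal FPKM sums, the all-gene median became 0.72, and 0.34 when MIR6087, a single short gene with 31.7% to 55.3% of the sum, was kept out. HIF1A then stood at 0.71 and 0.33 and VHL at 0.49 and 0.11, so that HIF1A stayed at the median of all genes and VHL below it under each. ARNT, EGLN2 and EGLN3 passed the threshold with equal sums (1.19, 1.09 and 1.07), a setting in which 44.1% of all genes were called higher. The calls of EPAS1, VEGFA, ADM, EGLN1 and BNIP3 held under all 5 other scalings, BNIP3 standing at -1.05 with equal sums.

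**Figure D3:**
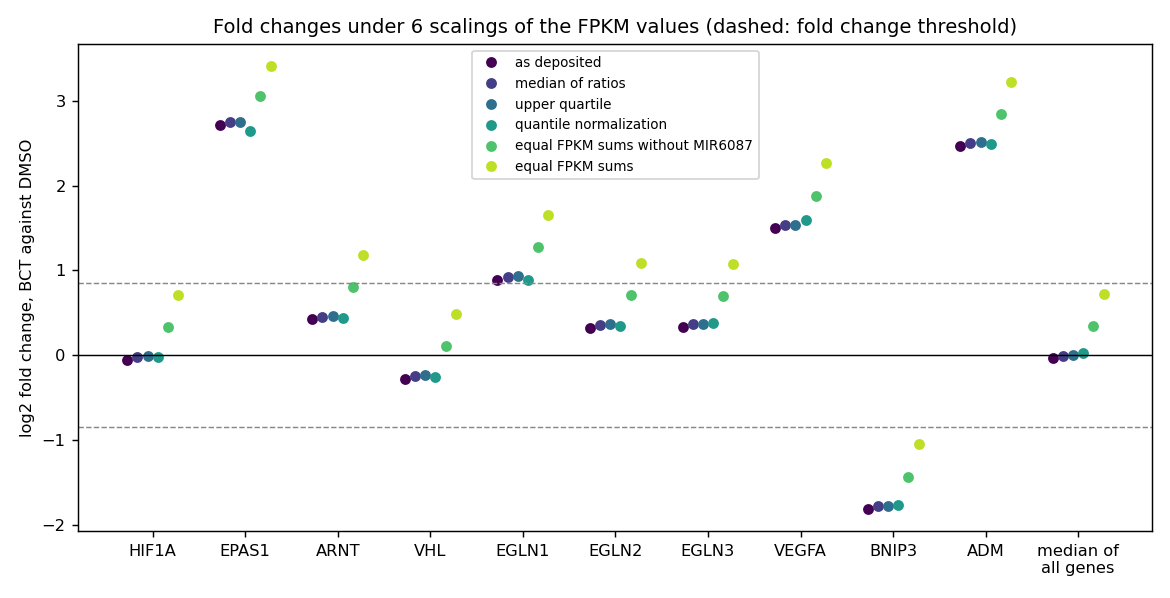
Log2 fold change (BCT against DMSO) of the 10 hypoxia axis genes and the median of all genes under 6 scalings of the FPKM values, with the fold change threshold dashed. EPAS1, VEGFA and ADM stay above and BNIP3 below the threshold in each, while HIF1A and VHL change sign with equal FPKM sums, as the median of all genes does.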

How the data were processed

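Per the labels and the study's methods, total RNA from 22RV1 cells was made into TruSeq libraries and sequenced as paired-end reads. The authors trimmed reads with Trimmomatic (0.38 in the submitters' processing notes), mapped them to hg19 using HISAT2 and deposited FPKM values, scaled by transcript length and mapped reads. The methods name StringTie for this step and the notes name HTSeq, and which of them made the deposited values is not clear. The gene annotation is not given in the sources used here. How reads of overlapping transcripts were treated is therefore not known, which could affect HIF1A and EGLN2.

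The deposited FPKM values were used without rescaling. Genes averaging 1 FPKM or more were tested on log2(FPKM + 0.1) in R 4.3.3 using limma 3.58.1 (trended eBayes, Benjamini-Hochberg adjustment over 12729 genes), and called at a log2 fold change over 0.85 and an adjusted p under 0.05. Ratios were tested with exact permutation tests in SciPy 1.17.1. For the RNA-seq comparison the methods give an FDR of 0.01 without naming its test, while the results text uses 0.05, and 0.01 was tried as an alternative. Other alternatives were the pseudocount, filter, scaling, variance model, a test against the threshold, a replicate block and leaving out each sample.

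The members, lists and alternatives were chosen with earlier results of these data known. Genes named from a list are up to 4 called higher and 4 called lower, by size of change, with no overlap between groups, plus HIF3A, HIF1AN, ARNT2, CUL2, CITED2, HSP90AA1 and HSP90AB1. BNIP3L, GAPDH, GBE1, TGFA, CA9, EPO, KDR, FLT1, CALCRL and NDUFA4L2 were chosen after their values were seen. ERO1L was matched as ERO1A through RefSeq. Positions are hg19 with 1 added to the deposited start, since adding 1 hit a GENCODE transcript start in 7961 of 22422 matched genes and leaving it as it was hit one in 857. Replicate numbers 1 to 3 occur in both groups, but deviations from the group means correlated at 0.116, 0.033 and 0.034 between same-numbered samples, so they were not taken as pairs.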

Additional observations from a re-analysis of the deposited data

How the results depend on the processing

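Of 208 fold changes of the 10 genes under alternative settings, 198 kept direction and call, 3 lost the call, 3 gained one and 4 reversed. EGLN1 lost its call with a pseudocount of 1, in a test against the fold change threshold (adjusted p = 0.94) and without DMSO replicate 2. The reversals were HIF1A (0.714 and 0.3335) and VHL (0.487 and 0.1067) with equal FPKM sums, with and without MIR6087. The replicate block kept 4 genes called higher and 1 lower, gave a median of 0.38, and changed no other call; the paired exact permutation p for each ratio was 0.25, the smallest possible.

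With equal FPKM sums, which called 44.1% of all genes higher and 5.25% lower, 7 of the 10 genes were called higher, and the numbers higher and lower were 10 and 1 for regulators, 14 and 8 for targets outside glycolysis (median 0.251), 2 and 5 for genes of glucose use (median -0.352), and 9 and 0 for partners and paralogs. Without MIR6087 in the sum, 26.5% of all genes were called higher and 9.49% lower. There, 10 targets outside glycolysis were higher and 12 lower, with a median of -0.13 against 0.34 for all genes. Of genes of glucose use, 1 was higher and 9 lower. Of partners and paralogs, 8 were higher and 1 lower, and of regulators, 5 were higher and 1 lower. With a pseudocount of 1, 1 regulator and 0 partners were lower, against 14.5% of all genes. A filter at a mean of at least 5 FPKM left 24 regulators, 13 partners and 28 targets outside glycolysis to test. There, 1 regulator and 0 partners were lower (16.9% of all genes) and 3 targets outside glycolysis higher (12.3% of all genes). Quantile normalization left 1 regulator and 1 partner lower, against 15.7% of all genes. A test against the threshold called 8.12% of all genes higher and 10.9% lower. It left 2 regulators higher, 1 lower and 0 partners lower. Without a filter the median of the partners was -0.0826. Leaving out 1 sample in turn gave 3 to 4 of the 10 genes higher and 1 lower, 1 to 2 regulators and 0 to 3 partners lower (1 without DMSO replicate 2 or BCT replicate 2, 0 without DMSO replicate 3), and 14 to 16 genes of glucose use lower. The number of regulators called lower was 1 without BCT replicate 2. FPKM cannot settle which scaling is right, and read depth per gene is unknown.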
